A study of Mus musculus with 12 samples.

Results

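Il21 and 7 genes of the follicular helper programme were followed over 4 groups of mouse CD4+ T cells from a study of experimental autoimmune encephalomyelitis (EAE), a mouse model of multiple sclerosis in which CD4+ T cells enter the central nervous system (CNS). The 8 members, Il21, Maf, Bcl6, Prdm1, Ascl2, Icos, Pdcd1 and Sh2d1a, were taken by gene symbol from the arrays, each as its brightest probe, out of 30101 measured gene names. Il21 was chosen by its measured levels on these arrays, high after transfer and low in immunised mice, so its levels are given as a description with no test. The other 7 were tested among 18630 genes. Total RNA of 12 samples was hybridised to 1-colour Agilent arrays, in 4 groups of 3. The immunised group held CNS CD4+ T cells of C57BL/6 mice that had received MOG35-55, a peptide of myelin oligodendrocyte glycoprotein (MOG), and were at peak disease. The transferred group began as Th17 cells cultured from B6.2d2 mice, which carry a transgenic T cell receptor for MOG. These cells were injected into Rag1-/- mice, which lack T and B cells, and were recovered from the CNS at peak disease. The cultured group held B6.2d2 Th17 cells made in vitro, and the naive group held CD4+ T cells from B6.2d2 spleens. Age, sex, purity and sort of the cells are not given in the labels. Between the immunised and the transferred group, the T cell receptor repertoire, the host and the way disease was induced all differ and cannot be told apart.

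Interleukin-21 is a cytokine of the common gamma chain family that activated CD4+ T cells secrete, above all follicular helper and Th17 cells. It acts through its receptor, the kinases JAK1 and JAK3 and the factor STAT3 on B cells, which it drives towards germinal centre and plasma cell fates, and on the T cells that make it. c-Maf, encoded by Maf, activates Il21 transcription in CD4+ T cells, BCL6 is the factor that sets up follicular helper identity, and Blimp-1, encoded by Prdm1, opposes BCL6. ICOS, PD-1 (Pdcd1) and the adaptor SAP (Sh2d1a) are the costimulatory receptor, the inhibitory receptor and the signalling partner of SLAM receptors through which these cells exchange signals with B cells. Ascl2 promotes the expression of the follicle homing receptor CXCR5 in mice.

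Levels are log2 processed signals minus the 75th percentile of the same array. Each array had 57.0% to 64.9% of its probes well above background, and all 8 members were well above background on all 12 arrays and passed the filter on dim genes. The series text gives the 3 replicates as independent experiments. The precision of every value is limited by 3 arrays per group, and array position on the slide was fixed by group, so position and group cannot be told apart. Cd3e and Cd4, which define CD4+ T cells, were well above background on every array. Il17a, the signature cytokine of Th17 cells, averaged 3.50 ± 1.13 in the immunised group, 1.82 ± 0.13 in transferred, 4.47 ± 1.78 in cultured and −5.63 ± 0.68 in naive cells (SD, n = 3 each), where 1 of 3 arrays was above background. Cultured replicate 3 stood apart for Il17a (2.42, against 5.46 and 5.55 in the other cultures), and also for Pdcd1 and Ascl2. In these bulk samples fewer cells of a type and less RNA per cell cannot be told apart.

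Il21, the cytokine gene, was high in transferred and cultured cells, intermediate in the immunised group and low in naive cells. On replicates 1, 2 and 3 its log2 level was −0.25, 0.30 and −0.44 in the immunised group and 4.26, 4.17 and 4.0 in transferred cells. It was 3.59, 4.84 and 3.91 in cultured cells and −4.36, −3.32 and −2.32 in naive cells. Every immunised array lay below every transferred and every cultured array and above every naive array, while the transferred and cultured ranges overlapped. Group means were −0.13 ± 0.39 in the immunised group, 4.14 ± 0.13 in transferred, 4.11 ± 0.65 in cultured and −3.33 ± 1.02 in naive cells (SD, n = 3 each). Immunised minus transferred cells was −4.27 log2 units (19.3-fold lower), with −4.51, −3.87 and −4.44 within the 3 slides. Against cultured cells the difference of the immunised group was −4.25 (19.0-fold lower). Transferred minus cultured cells came to 0.03 log2 units, less than the SD of 0.65 among the cultures. Above naive cells the difference was 3.20 for the immunised group (9.18-fold), 7.47 for transferred cells (177-fold) and 7.44 for cultured cells (174-fold). The Il21 probe lies at chr3:37121681-37121740 on the minus strand of mm9, and the part of the transcript that each probe covers was not analysed here.

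**Figure D1:**
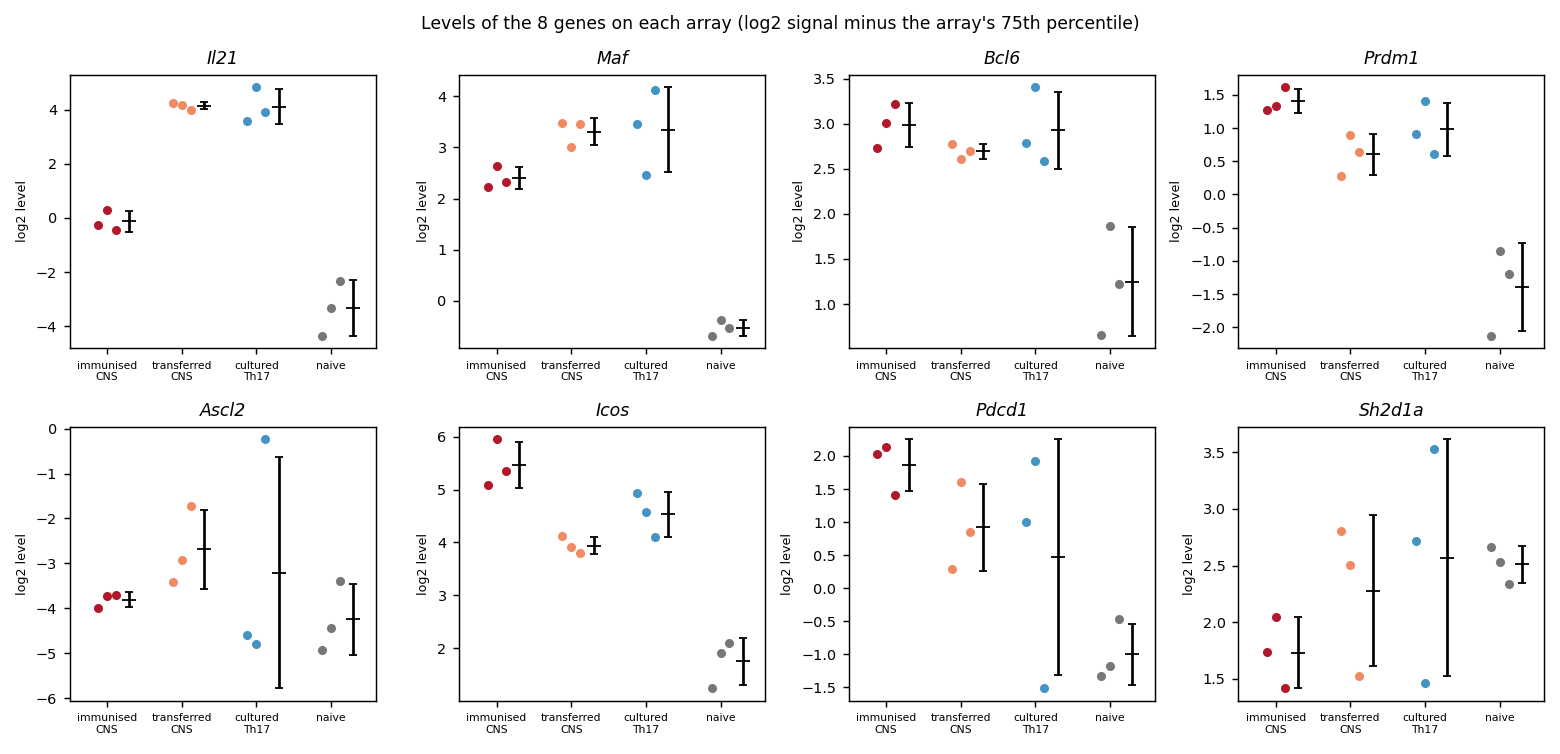
Log2 levels (log2 signal minus the array's 75th percentile, vertical axes) of the 8 genes on each of 3 arrays per group (points), with the group mean and SD beside them (black). Il21 lies between −0.44 and 0.30 in the immunised group and at 4.0 or more in transferred cells, whereas Icos is highest in the immunised group and the 3 cultures spread widely for Pdcd1, Ascl2 and Sh2d1a.

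The bases just before the Il21 start are shown because c-Maf and NFAT, the calcium-dependent factor of activated T cells, are known activators of this gene. RefSeq's table for GRCm38.p6 matched 5 of the 8 members, Il21, Bcl6, Prdm1, Pdcd1 and Ascl2. The sequence below is the minus strand of chr3:37232637-37232886, the 250 bases before the start, with matches on either strand to the MAF half-site core TGCTGA and the NFAT core GGAAA in capitals.
Il21: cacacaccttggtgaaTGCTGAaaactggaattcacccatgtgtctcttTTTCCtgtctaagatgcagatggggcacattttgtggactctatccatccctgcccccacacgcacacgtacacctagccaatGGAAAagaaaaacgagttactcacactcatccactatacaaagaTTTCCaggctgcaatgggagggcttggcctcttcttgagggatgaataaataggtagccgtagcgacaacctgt
The window held 1 match to TGCTGA, whose first base was at −234 from the start, and 3 to GGAAA, of which 2 lay on the opposite strand, where they read TTTCC, and none of these overlapped. Of 32851 mouse promoters of this length, 16.1% held TGCTGA and 55.6% held GGAAA. The Il21 window had no match to the loose AP-1 pattern TGANTCA or the STAT site TTCNNNGAA, and 2 to the E-box CANNTG, which 66.2% of promoters held.

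The genes whose levels were most like those of Il21 over the 12 arrays, by Pearson's r among 4818 candidate genes whose group means spanned at least 2 log2 units, were Mpzl2 (0.968), Bace2 (0.966), Stc2 (0.966), Lrfn4 (0.962) and Lama5 (0.960). Mpzl2 encodes an adhesion molecule of the immunoglobulin superfamily, Bace2 a protease related to beta-secretase, Stc2 the secreted glycoprotein stanniocalcin-2, Lrfn4 a leucine-rich repeat membrane protein and Lama5 a laminin chain. Lama5 averaged −1.41 in the immunised group, 2.71 in transferred, 3.77 in cultured and −3.57 in naive cells. Mpzl2 averaged −3.01 in the immunised group, −0.34 in transferred and 0.25 in cultured cells, and was not well above background on any naive array. Stc2 was not well above background on any naive array either, Bace2 was on 1 and Lrfn4 on 2 of 3. All 5 were lower in the immunised group than in transferred and cultured cells and higher there than in naive cells. They were picked for their r with Il21 on these same arrays, so this shared order follows from the choice. Among the members, r with Il21 was 0.894 for Maf, rank 192 of 18630 genes, 0.726 for Bcl6, 0.661 for Prdm1, 0.560 for Icos, 0.432 for Ascl2, 0.411 for Pdcd1 and 0.024 for Sh2d1a. These correlations rest on 4 groups that each hold 3 like arrays and are descriptions.

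**Figure D2:**
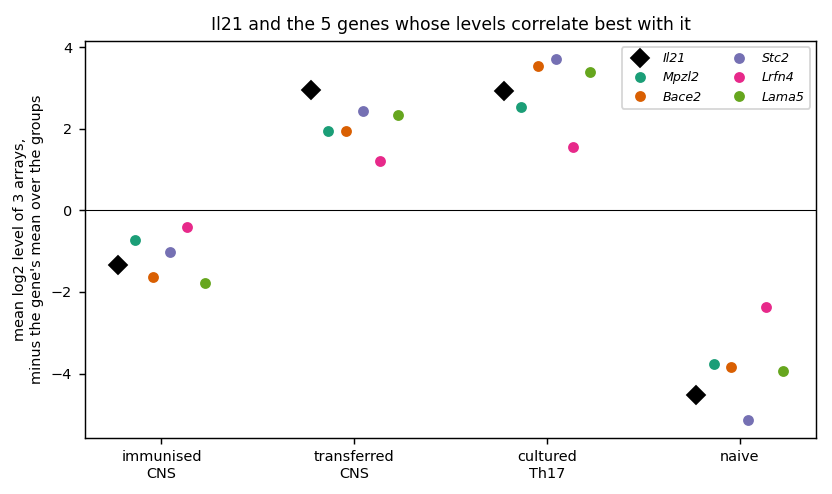
Mean log2 level of 3 arrays per group for Il21 (diamonds) and the 5 genes whose levels correlated best with it (points), each minus its own mean over the 4 groups. All 6 genes sit above their own mean in transferred and cultured cells and below it in the immunised group and in naive cells.

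Maf, the gene of the factor c-Maf, was higher in all 3 activated groups than in naive cells. Its log2 level was 2.23, 2.64 and 2.33 in the immunised group, 3.47, 3.0 and 3.45 in transferred cells, 3.46, 2.46 and 4.11 in cultured cells, and −0.68, −0.37 and −0.52 in naive cells. The naive arrays were below all others, and the immunised arrays were all below the transferred ones but overlapped the cultures. Maf rose by 2.92 ± 0.35 in the immunised group against naive cells (limma adjusted p = 8.94e-05), by 3.83 ± 0.35 in transferred cells (limma adjusted p = 1.47e-05) and by 3.87 ± 0.35 in cultured cells (limma adjusted p = 1.81e-05). These are log2 differences with the SE of the fit, here and below. Immunised minus transferred cells gave −0.91 ± 0.35, which did not pass (limma adjusted p = 0.18), and −1.24, −0.36 and −1.12 within the slides. With array weights it was −0.87 and passed (limma adjusted p = 0.00684). Immunised minus cultured cells gave −0.95 ± 0.35 (limma adjusted p = 0.0615), and passed at −1.39 without cultured replicate 2 (limma adjusted p = 0.00326). With all arrays kept it passed at −1.20 with the mean of all probes (limma adjusted p = 0.0167), at −0.97 with normexp (limma adjusted p = 0.0231) and at −1.06 with array weights (limma adjusted p = 0.000961). A second Maf probe gave −1.35 between the immunised and transferred groups. The brightest probe lies at chr8:118227736-118227795 on the minus strand of mm9. Maf is also expressed by macrophages, whose markers were high in both CNS groups, as given below, and their part in the Maf level was not tested.

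Bcl6, the follicular helper master factor, and Prdm1, the gene of its antagonist Blimp-1, were both higher in every activated group than in naive cells. Bcl6 was 2.73, 3.01 and 3.21 in the immunised group, 2.77, 2.61 and 2.70 in transferred cells, 2.79, 3.41 and 2.59 in cultured cells and 0.66, 1.86 and 1.22 in naive cells. The activated arrays overlapped each other and lay above all naive arrays. Bcl6 rose by 1.74 ± 0.30 in the immunised group (limma adjusted p = 0.000958), 1.45 ± 0.30 in transferred cells (limma adjusted p = 0.00279) and 1.68 ± 0.30 in cultured cells (limma adjusted p = 0.00144) against naive cells. Between the immunised and transferred groups the difference was 0.29 ± 0.30 (limma adjusted p = 0.628).

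Prdm1 was 1.27, 1.33 and 1.62 in the immunised group, 0.28, 0.89 and 0.64 in transferred cells, 0.91, 1.41 and 0.61 in cultured cells and −2.13, −0.86 and −1.20 in naive cells. All immunised arrays were above all transferred ones, and the cultures overlapped both. Against naive cells Prdm1 rose by 2.80 ± 0.33 in the immunised group (limma adjusted p = 7.75e-05), by 2.0 ± 0.33 in transferred cells (limma adjusted p = 0.000639) and by 2.37 ± 0.33 in cultured cells (limma adjusted p = 0.000261). Immunised minus transferred cells was 0.80 ± 0.33 and did not pass (limma adjusted p = 0.203), with 0.99, 0.44 and 0.98 within the slides. The Bcl6 probe lies at chr16:23965160-23965219 and the Prdm1 probe at chr10:44157089-44157148, both on the minus strand of mm9. Blimp-1 is also made by plasma cells, whose markers are compared between the CNS groups below. Against naive cells 1 of the 5 plasma cell markers tested rose and 3 fell in each CNS group. Over 25 alternatives the number called there ran from 2 to 4 in the immunised group and from 3 to 4 in transferred cells. The 6 markers measured summed to 3.95 to 25 in naive cells. The part of plasma cells in the Prdm1 level was not tested.

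The windows before a start of Bcl6 (chr16:23981284-23981533, 1 of 2 starts in the table) and the start of Prdm1 (chr10:44458749-44458998) are shown, both on the minus strand of GRCm38.p6 from RefSeq, because this opposing pair rose together against naive cells. Capitals mark matches to the STAT site TTCNNNGAA, the loose AP-1 pattern TGANTCA, the NFAT core GGAAA and the MAF half-site core TGCTGA.
Bcl6: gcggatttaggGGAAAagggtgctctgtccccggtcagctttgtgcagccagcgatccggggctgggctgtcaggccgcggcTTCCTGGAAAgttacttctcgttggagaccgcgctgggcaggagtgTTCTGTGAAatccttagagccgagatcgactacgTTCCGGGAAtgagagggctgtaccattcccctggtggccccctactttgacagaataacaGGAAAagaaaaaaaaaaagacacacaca
Prdm1: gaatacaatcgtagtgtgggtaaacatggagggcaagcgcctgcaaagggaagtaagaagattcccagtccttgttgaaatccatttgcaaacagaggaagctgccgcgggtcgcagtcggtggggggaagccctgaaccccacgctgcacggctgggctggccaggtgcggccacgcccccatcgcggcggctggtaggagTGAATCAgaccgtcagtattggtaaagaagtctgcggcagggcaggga
This Bcl6 window held 3 matches to TTCNNNGAA, the palindrome that STAT factors such as the STAT3 of IL-21 signalling recognise, and 3 to GGAAA, of which 1 overlapped a STAT match. The window of the other Bcl6 start had 1 match to each. The Prdm1 window held 1 match to TGANTCA, a loose pattern for AP-1 factors such as BATF that allows any central base, at −48 to −42 from the start. The match read TGAATCA, and whether AP-1 factors bind it was not tested. Of all promoters of this length, 7.02% held TTCNNNGAA and 6.75% held TGANTCA.

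Ascl2, the mouse inducer of CXCR5, was dim in all groups and spread widely. It was −4.0, −3.72 and −3.71 in the immunised group, −3.43, −2.92 and −1.72 in transferred cells, −4.59, −4.79 and −0.24 in cultured cells and −4.92, −4.44 and −3.38 in naive cells. The transferred arrays were all above the immunised ones, and a single culture, replicate 3, was far above the other 2. No difference passed. Immunised minus transferred cells was −1.12 ± 1.02 (limma adjusted p = 0.573), and transferred minus naive cells 1.56 ± 1.02 (limma adjusted p = 0.234). Without cultured replicate 3, transferred cells passed against naive cells (1.56, limma adjusted p = 0.0174) and against cultured cells (2.0, limma adjusted p = 0.0179), with 0.52 ± 1.02 between transferred and cultured cells when it was kept. With all arrays, transferred cells passed against naive cells at 2.62 with T cell core scaling (limma adjusted p = 0.041) and against cultured cells at 1.64 with array weights (limma adjusted p = 0.0247). Its probe lies at chr7:150152734-150152793 on the minus strand of mm9. Cxcr5, the receptor itself, was −1.53, −0.79 and −2.14 in the immunised group, −1.96, −1.41 and −4.93 in transferred, −3.31, −2.51 and −3.13 in cultured and −1.49, −2.33 and −1.01 in naive cells, and none of its differences passed.

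Icos, the costimulatory receptor gene, was the 1 tested member that passed between the CNS groups. Its log2 level was 5.09, 5.95 and 5.35 in the immunised group, 4.12, 3.91 and 3.79 in transferred cells, 4.94, 4.57 and 4.10 in cultured cells and 1.24, 1.91 and 2.10 in naive cells. Every immunised array was above every other array, and every naive array below. Icos was 1.52 ± 0.30 higher in the immunised group than in transferred cells (2.87-fold, limma adjusted p = 0.0243), and 0.97, 2.04 and 1.55 higher within the slides. The other 2 Icos probes gave 1.72 and 1.05. Scaled on T cell core genes instead, the rise was 1.11 and did not pass (limma adjusted p = 0.0569), and it also missed the threshold without transferred replicate 2 or 3 (limma adjusted p = 0.0714 and 0.0893) and without immunised replicate 2 or 3 (limma adjusted p = 0.093 and 0.0572), at 1.28 to 1.58 log2 units.

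Against cultured cells Icos was 0.93 ± 0.30 higher in the immunised group (limma adjusted p = 0.0382), and 0.15, 1.38 and 1.25 within the slides. That call was lost under 12 of 25 alternatives, among them the slide as a replicate block (limma adjusted p = 0.0548) and array weights, where the value was 0.34 (limma adjusted p = 0.198). It was also lost without immunised replicate 2 (0.69) or 3 (0.99), cultured replicate 2 (0.95) or 3 (0.71) or transferred replicate 2 (0.93). Against naive cells Icos rose by 3.71 ± 0.30 in the immunised group (limma adjusted p = 6.81e-06), 2.19 ± 0.30 in transferred cells (limma adjusted p = 0.000213) and 2.78 ± 0.30 in cultured cells (limma adjusted p = 5.58e-05). The Icos probe lies at chr1:61057105-61057164 on the plus strand of mm9. Regulatory T cells, which are known to carry ICOS, were looked for through Foxp3, a gene chosen after its values were seen. Foxp3 was 1.49, 2.19 and 1.57 in the immunised group, −3.65, −2.45 and −1.40 in transferred, −3.41, −3.79 and −2.75 in cultured and −1.08, −1.59 and −0.56 in naive cells, and its part in the Icos difference was not tested.

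**Figure D3:**
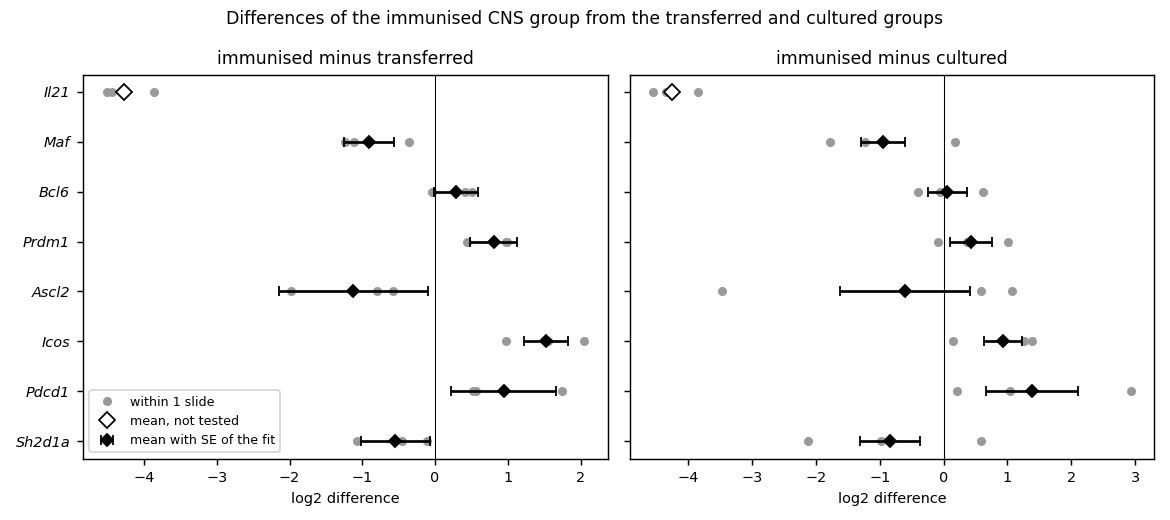
Log2 difference of the immunised group from transferred cells (left) and from cultured cells (right) for the 8 genes, within each of 3 slides (grey) and as the mean (diamonds, with the SE of the limma fit for the 7 tested genes). Il21 is below −3.8 within every slide in both panels, and Icos is above 0 within every slide.

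Pdcd1, which encodes the inhibitory receptor PD-1, was 2.03, 2.14 and 1.41 in the immunised group, 0.29, 1.61 and 0.85 in transferred cells, 1.0, 1.93 and −1.51 in cultured cells and −1.34, −1.19 and −0.47 in naive cells. The naive arrays were below both CNS groups, and cultured replicate 3 was the lowest of all. Pdcd1 rose by 2.86 ± 0.72 in the immunised group against naive cells (limma adjusted p = 0.00792). In transferred cells it rose by 1.92 ± 0.72 (limma adjusted p = 0.0485). That call was lost under 12 of 25 alternatives, among them leaving out any 1 of the naive, transferred or immunised arrays or cultured replicate 1. Over all 25 alternatives the limma adjusted p ran from 0.00154 to 0.154. In cultured cells the difference was 1.47 ± 0.72 and did not pass (limma adjusted p = 0.13), whereas it passed at 2.46 without cultured replicate 3 (limma adjusted p = 0.00197), at 1.97 with T cell core scaling (limma adjusted p = 0.0474) and at 1.99 with array weights (limma adjusted p = 0.0046). Immunised minus transferred cells was 0.94 ± 0.72 (limma adjusted p = 0.5). Immunised minus cultured cells was 1.39 ± 0.72 (limma adjusted p = 0.166), and passed at 2.12 without cultured replicate 2 (limma adjusted p = 0.0369) and at 0.96 with array weights (limma adjusted p = 0.0296). Its probe lies at chr1:95935064-95935123 on the minus strand of mm9.

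Sh2d1a, the gene of SAP, had no difference that passed, although 2 passed under some alternatives. It was 1.73, 2.04 and 1.42 in the immunised group, 2.81, 2.50 and 1.53 in transferred cells, 2.72, 1.46 and 3.53 in cultured cells and 2.66, 2.53 and 2.34 in naive cells. The immunised arrays were all below the naive ones, and the transferred and cultured arrays overlapped both. Against naive cells the difference was −0.78 ± 0.48 in the immunised group (limma adjusted p = 0.198), −0.23 ± 0.48 in transferred cells (limma adjusted p = 0.72) and 0.06 ± 0.48 in cultured cells (limma adjusted p = 0.933), and none passed. The first passed with only the arrays compared (−0.78, limma adjusted p = 0.019) and with array weights (−0.75, limma adjusted p = 0.0465). Against cultured cells the immunised group differed by −0.84 ± 0.48 (limma adjusted p = 0.202), which passed at −1.39 without cultured replicate 2 (limma adjusted p = 0.0237) and at −0.81 with array weights (limma adjusted p = 0.0196). Its probe lies at chrX:39875116-39875175 on the plus strand of mm9.

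Counted over the 7 tested members, 4 or 5 rose in each activated group against naive cells, and at most 1 passed between any pair of activated groups. In the immunised group against naive cells 5 members rose (Maf, Bcl6, Prdm1, Icos and Pdcd1) and 0 fell, where 48.3% of all genes were called, with 20.6% higher and 27.7% lower. The same 5 rose in transferred cells against naive cells, where 47.7% of genes were called, 21.2% higher and 26.5% lower, and 4 of them, all but Pdcd1, rose in cultured cells, where 40.1% were called, 19.7% higher and 20.3% lower. The median log2 difference of the 7 members from naive cells was 2.80 in the immunised group, 1.92 in transferred and 1.68 in cultured cells, against −0.19, −0.12 and −0.08 over all genes. These 3 comparisons share the naive arrays. Of all genes called, 42.6%, 44.4% and 49.2% were higher in the immunised, transferred and cultured groups, against 79.9%, 91.6% and 80.4% when arrays were scaled on the T cell core.

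In transferred against cultured cells 0 of the 7 members passed with limma, against 28.3% of all genes (12.8% higher, 15.5% lower), and 0 had an unadjusted p under 0.05. With array weights 2 passed, Icos at −0.93 (limma adjusted p = 0.0145) and Ascl2 at 1.64. The median member difference was −0.23, against −0.10 over all genes, and members ran from −0.59 ± 0.30 for Icos to 0.52 ± 1.02 for Ascl2. In the immunised group against cultured cells 1 member, Icos, rose, where 31.5% of genes were called (13.7% higher, 17.8% lower), with medians of 0.06 and −0.17. With the mean of all probes the 1 member called there was Maf, which fell. In the immunised group against transferred cells Icos was again the 1 member that rose, where 3.22% of genes were called (1.85% higher, 1.37% lower), with medians of 0.29 and −0.04. Maf, Prdm1, Ascl2 and Icos did not overlap between the immunised and transferred groups, as was true of 33.8% of all genes. Each pair of these 3 comparisons shares a group. Of all genes called, 45.3% were higher in transferred against cultured cells, 43.5% in the immunised against the cultured group and 57.3% in the immunised against the transferred group, or 84.0%, 57.4% and 19.8% with T cell core scaling.

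Downstream of the cytokine, Il21r, the IL-21 receptor gene, was 1.79, 2.29 and 2.20 in the immunised group, 1.76, 1.96 and 1.42 in transferred, 3.01, 3.84 and 3.16 in cultured and 2.54, 3.06 and 2.60 in naive cells. It fell by 1.24 ± 0.26 in the immunised group (limma adjusted p = 0.00484) and by 1.62 ± 0.26 in transferred cells (limma adjusted p = 0.00123) against cultured cells, and the cultured arrays were above both. Of 8 genes of the receptor and its signalling, 0 passed between the immunised and transferred groups. In the immunised group against cultured cells 1 rose and 3 fell, and in transferred against cultured cells 0 rose and 4 fell. For this and the following lists, the shares of all genes called against naive cells were 48.3% (immunised), 47.7% (transferred) and 40.1% (cultured). They were 31.5% for immunised against cultured, 28.3% for transferred against cultured and 3.22% for immunised against transferred cells. No list was tested against these shares. Socs1, an inhibitor of JAK kinases that cytokines induce, was 1.61 ± 0.26 lower in the immunised group and 1.65 ± 0.26 lower in transferred cells than in culture. Socs3, the inhibitor that STAT3 induces, rose by 1.52 ± 0.27 in the immunised group and by 1.28 ± 0.27 in transferred cells against naive cells, where 2 of the 8 genes rose in each and 1 and 4 fell. Without immunised replicate 1 or 3 the immunised group had 0 higher and 2 lower against culture and 1 higher and 0 lower against naive cells, the second also without naive replicate 3, and without cultured replicate 2 or 3 the list had 1 gene higher than in transferred cells. Scaled on the T cell core, 4 rose and 0 fell in transferred against naive cells, and 1 rose and 2 fell against culture.

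Of 16 other surface and secreted genes of follicular helper cells, 6 rose and 3 fell in the immunised group against naive cells, 9 rose and 3 fell in transferred cells, and 8 rose and 5 fell in culture. Ctla4, the gene of the inhibitory receptor CTLA-4, rose by 5.10 ± 0.29, 4.78 ± 0.29 and 6.36 ± 0.29 in the immunised, transferred and cultured groups, and Tnfrsf4, the costimulatory receptor OX40, by 3.90 ± 0.41, 4.33 ± 0.41 and 3.85 ± 0.41. Between the immunised and transferred groups 0 rose and 2 fell. Tnfsf8, the CD30 ligand, averaged 0.35 in the immunised group and 3.07 in transferred cells and fell by 2.72 ± 0.37 (limma adjusted p = 0.0034). Cd200, a ligand that restrains myeloid cells, averaged −0.36 in the immunised group and 1.66 in transferred cells and fell by 2.02 ± 0.29 (limma adjusted p = 0.00472). Il4, a cytokine of type 2 and follicular helper cells, rose by 7.72 ± 2.01 in transferred cells against naive cells (limma adjusted p = 0.0091), where 1 of 3 arrays was above background. Against cultured cells 4 rose and 2 fell in the immunised group, or 1 to 2 and 1 without cultured replicate 2 or immunised replicate 1 or 3, and 6 rose and 1 fell in transferred cells.

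Of 15 transcription factors known to act with the members, 5 rose and 5 fell in the immunised group against naive cells, 4 rose and 6 fell in transferred cells, and 6 rose and 6 fell in culture. Irf4, the partner of BATF at AP-1 sites, rose by 3.41 ± 0.36, 3.90 ± 0.36 and 4.25 ± 0.36 in the immunised, transferred and cultured groups. Lef1, which with TCF-1 promotes Bcl6 expression, fell by 2.42 ± 0.27 in the immunised group and by 3.05 ± 0.27 in transferred cells. Transferred cells against cultured cells had 1 factor higher and 5 lower, among them Batf at −2.05 ± 0.36 (limma adjusted p = 0.00216) and Nfatc2 at −1.84 ± 0.30 (limma adjusted p = 0.00125). Scaled on the T cell core, transferred cells had 8 higher and 4 lower against naive and 3 higher and 5 lower against cultured cells. Immunised against cultured cells had 3 higher and 4 lower, or 1 and 3 without immunised replicate 1. Immunised against transferred cells had 1 higher, Rora, by 1.72 ± 0.36 (limma adjusted p = 0.0299), and 0 with T cell core scaling or without any 1 of the arrays compared.

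Of 12 genes that oppose the follicular helper programme, 4 rose and 4 fell in the immunised group against naive cells, 4 rose and 5 fell in transferred cells, and 4 rose and 5 fell in culture. The interleukin-2 receptor gene Il2ra rose by 3.14 ± 0.28, 2.92 ± 0.28 and 5.63 ± 0.28 in the immunised, transferred and cultured groups, and Id2, an inhibitor of E proteins, by 3.50 ± 0.37, 3.42 ± 0.37 and 4.30 ± 0.37. Il2ra was 2.48 ± 0.28 lower in the immunised group and 2.71 ± 0.28 lower in transferred cells than in culture. Klf2, a factor of quiescent and recirculating T cells, was 4.46 ± 0.56 higher in the immunised group and 4.11 ± 0.56 higher in transferred cells than in culture. Its level was highest in naive cells, averaging 6.04, against 5.29 in the immunised group, 4.94 in transferred and 0.825 in cultured cells. In the immunised against the cultured group 2 rose and 4 fell, and in transferred against cultured cells 2 rose and 7 fell, or 2 and 3 without transferred replicate 3 and 3 and 1 with T cell core scaling. Between the immunised and transferred groups 1 rose, S1pr1, the receptor for tissue egress, by 2.25 ± 0.43 (limma adjusted p = 0.0215), and 1 fell, Bach2, a repressor that opposes effector differentiation, by 1.67 ± 0.30 (limma adjusted p = 0.0169). S1pr1 missed the threshold without transferred replicate 2 or 3 or immunised replicate 1 or 2, and Bach2 without transferred replicate 2 or immunised replicate 1.

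Among 10 SLAM receptors and SAP partners, 4 rose and 3 fell in the immunised group against naive cells, 4 rose and 4 fell in transferred cells (3 and 2 without naive replicate 3), and 1 rose and 5 fell in culture. Slamf7, a SLAM receptor of lymphocytes and myeloid cells, rose by 3.96 ± 0.62 in the immunised group and 3.60 ± 0.62 in transferred cells. Sh2d1b1, the SAP relative EAT-2 of NK and antigen-presenting cells, was not well above background on any naive or cultured array. Its level was at least 8.08-fold that of naive cells in the immunised group and at least 6.36-fold in transferred cells. These bounds set the dim group at the lowest signal well above background on each array. Against cultured cells 5 rose and 0 fell in the immunised group and 4 rose and 1 fell in transferred cells, or 1 to 2 and 0 to 1 without any 1 transferred array. Between the immunised and transferred groups 0 passed, against 3 that rose without cultured replicate 3 and 1 without immunised replicate 3.

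Of 5 ligands of ICOS, PD-1 and related receptors, 4 rose and 0 fell in the immunised group against naive cells, 4 and 0 in transferred cells, and 3 and 0 in culture. Antigen-presenting cells are the usual source of these ligands. Icosl, the ICOS ligand gene, rose by 2.67 ± 0.29 in the immunised group and 2.20 ± 0.29 in transferred cells, calls that were lost when all its probes were averaged (limma adjusted p = 0.0897 and 0.0851). Cd86, a ligand of CD28 and CTLA-4, rose by 5.25 ± 0.32 and 5.07 ± 0.32 in the same groups. Pdcd1lg2, the PD-1 ligand PD-L2, was the 1 ligand that differed between the CNS groups, at 0.30 in the immunised group and 2.41 in transferred cells, where it fell by 2.10 ± 0.33 in the immunised group (limma adjusted p = 0.00827). Against cultured cells 4 of the 5 rose in the immunised group, and 5 in transferred cells, or 3 without any 1 transferred array or cultured replicate 1 or 3.

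Of 10 co-inhibitory and IL-10 genes that c-Maf and Blimp-1 are known to regulate in T cells, 9 rose and 0 fell in the immunised group against naive cells, 8 rose and 2 fell in transferred cells, and 8 rose and 1 fell in culture. Il1r2, the decoy receptor for interleukin-1, rose by 8.11 ± 0.52 in the immunised group and by 9.33 ± 0.52 in culture, and was above background on 2 of 3 naive arrays. Havcr2, the inhibitory receptor TIM-3, rose by 7.68 ± 0.58 in the immunised group and 7.41 ± 0.58 in transferred cells, with 1 of 3 naive arrays above background. Procr, the protein C receptor, was at least 98.3-fold, 37.8-fold and 65.8-fold higher in the immunised, transferred and cultured groups than in naive cells. Between the immunised and transferred groups 3 rose and 0 fell, Klrg1, a receptor of late effector cells, by 3.62 ± 0.38 (limma adjusted p = 0.00102), Il1r2 by 2.74 ± 0.52 (limma adjusted p = 0.0205) and Cd5, a brake on T cell receptor signals, by 2.24 ± 0.40 (limma adjusted p = 0.0146). The count was 1, Klrg1, without transferred replicate 3 or immunised replicate 1 or 2, and Il1r2 also missed the threshold without immunised replicate 3. Against cultured cells 2 rose and 1 fell in the immunised group and 1 rose and 2 fell in transferred cells, or 2 and 3 without cultured replicate 3.

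The median log2 difference between the immunised and transferred groups was 0.30 for the receptor and signalling genes, −0.22 for the surface and secreted genes, 0.44 for the transcription factors, 0.32 for the opposing genes, 0.36 for the SLAM genes, 0.18 for the ligands and 0.91 for the co-inhibitory genes, against −0.04 over all genes. In transferred against cultured cells these medians were −1.12, 0.91, −0.32, −1.03, 0.59, 1.60 and −0.05 in the same order, against −0.10 over all genes. In the immunised group against naive cells they were 0.08, 0.41, 0.12, −0.46, 0.15, 2.67 and 5.15, against −0.19.

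**Figure D4:**
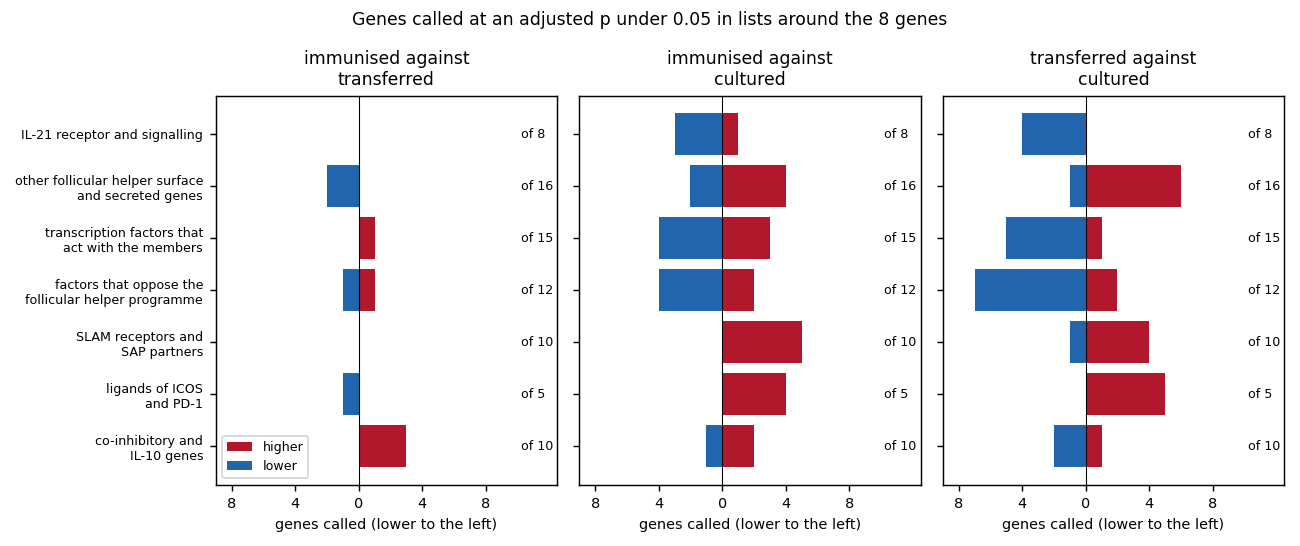
Number of genes called higher (red, to the right) or lower (blue, to the left) at a limma adjusted p under 0.05 in 7 lists around the 8 genes, for 3 comparisons, with the number tested at the right edge. At most 3 genes in any list pass between the immunised and transferred groups, where 3.22% of all genes were called. In transferred against cultured cells, where 28.3% were called, 7 of 12 opposing factors are lower. With T cell core scaling 3 of these factors were higher and 1 was lower there.

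Many markers of other cell types were called higher in the CNS groups than in culture. The summed linear level of 13 macrophage and monocyte markers was 422 to 943 in the immunised group, 573 to 863 in transferred, 19.3 to 30.3 in cultured and 24.2 to 98.0 in naive cells (1 being the 75th percentile of the array), and 12 of the 13 were higher in each CNS group than in culture. Microglia markers rose for 7 of 8 in each CNS group against culture, dendritic cell markers for 4 of 5 in the immunised group and 3 of 5 in transferred cells, and neural and glial markers for 5 and 4 of 9. The 10 neural and glial markers measured nonetheless summed to only 16.1 to 32.7 in the immunised group and 11 to 22.4 in transferred cells. Cultured cells had 23.7 to 27.9 and naive cells 41.1 to 99.5. Against naive cells 4 of the 9 tested rose and 2 fell in each CNS group. The 12 T cell core markers summed to 371 to 549 in the immunised group, 334 to 443 in transferred, 640 to 721 in cultured and 599 to 719 in naive cells, with medians of −0.68 and −1.03 for the immunised and transferred groups against naive cells. The part of these cells in the levels of Maf, Bcl6, Prdm1, Icos, Pdcd1, the ligands, the co-inhibitory genes and the other list genes was not tested. Relative to the T cell core in place of the 75th percentile, all genes shifted by a median of 0.94 in transferred against naive cells (−0.12 otherwise) and of −0.46 in the immunised group against transferred cells (−0.04 otherwise). That scaling also moved the median of all genes against naive cells to 0.45 in the immunised group and 0.43 in cultured cells (−0.19 and −0.08 otherwise). Every member called above naive cells was also called under it, but an upward shift could hardly remove such calls, so this is no check of them. Il21 was then 4.69 lower in the immunised group than in transferred cells, in the direction of the −0.46 shift.

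Of all genes, 3.22% were called between the CNS groups themselves. There 0 of 13 macrophage, 0 of 8 microglia, 0 of 12 T cell core and 0 of 7 Th17 markers tested passed with limma. Their median log2 differences, immunised minus transferred, were 0.06, −0.02, 0.20 and 1.68 in the same order, against −0.04 over all genes. The Th17 median was 1.81, 1.76 and 1.02 within the 3 slides. Neutrophil markers summed to 455 to 580 in the immunised group and 5.76 to 176 in transferred cells, and 3 of 8 rose. B cell markers summed to 1.47 to 1.58 in the immunised group and 0.493 to 0.933 in transferred cells and 2 of 6 tested rose, and in transferred cells Ms4a1, Pax5 and Blk were not well above background on any array. Plasma cell markers, which share Blimp-1 with effector T cells, summed to 2.19 to 3.46 in the immunised group and 0.955 to 1.85 in transferred cells, and 2 of 5 tested rose. Of CD8 and NK cell markers 1 of 6 tested rose, and summed levels were 1.46 to 2.01 in the immunised group and 0.953 to 2.75 in transferred cells. These counts moved with the processing and with single arrays. Over 25 alternatives the neutrophil count ran from 0 to 6 and moved by over 1.5 times under 13, being 0 without transferred replicate 2 or any 1 immunised array, 1 without any 1 naive array or cultured replicate 1, and 5 without transferred replicate 1. The B cell count ran from 1 to 3 and was 1 without any 1 of the arrays compared, naive replicate 1 or 3 or cultured replicate 1. The plasma cell count ran from 0 to 2 and was 0 or 1 without any 1 transferred array or immunised replicate 1 or 2. The CD8 and NK cell count ran from 0 to 2 and was 0 without transferred replicate 1 or 3 or immunised replicate 1 or 2. T cell core and Th17 markers reached 3 and macrophage and microglia markers 2, all with array weights, and leaving out 1 array gave 1 for T cell core and Th17 markers (cultured replicate 2 or 3) and for microglia (transferred replicate 3). The part of these cells in the differences of Icos, Prdm1, Il1r2 and the other list genes was not tested.

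**Figure D5:**
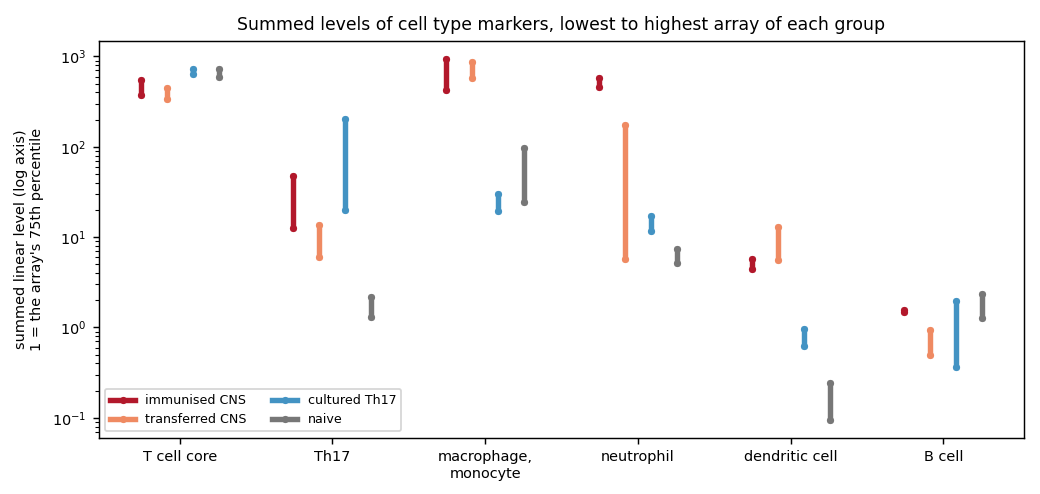
Range from the lowest to the highest array of the summed linear level of cell type markers (log axis, 1 being the array's 75th percentile) in the 4 groups. Macrophage markers lie at 422 or more in both CNS groups, neutrophil markers at 455 to 580 in the immunised group, and T cell core markers at 334 or more in all groups.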

How the data were processed

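The authors deposited 12 Agilent Feature Extraction outputs, per the file headers from version 10.7.3.1 with protocol GE1_107_Sep09, whose processed signal is a background-corrected intensity that was not scaled between arrays. Per the labels' protocols, RNA was amplified and labelled with Cy3, and each array is 1 sample. The deposited value table holds processed values on an unstated linear scale (column medians of 50.4 to 51.3). It served as an alternative after each column matched its own array best (lowest r 0.998). Background calls are the deposited well-above-background flags.

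From these intensities, log2 levels were computed as log2 of the processed signal minus the 75th percentile of non-control probes on that array, leaving out outlier spots. Each gene was read by its brightest probe, named by accession or symbol from the files and RefSeq. Genes that some group measured well above background on each of its 3 arrays (18630 of 30101) entered 1 limma model over 12 arrays with no covariates (limma 3.58.1, R 4.3.3), with Benjamini-Hochberg adjustment over those genes and calls at an adjusted p under 0.05. Feature Extraction outputs were read with Python 3.11.15. The code was tested on simulated data. Promoters of 5 of 8 members came from RefSeq's GRCm38.p6 table, whereas probe coordinates are those of mm9.

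The members, gene lists and markers were chosen with earlier results of these data known, and some genes stand in more than 1 list. Named list genes were up to 3 per comparison and direction that changed most, taken from those called with no overlap between the groups. Alternatives were 3 other scalings, normexp with an offset of 50, the deposited table, 2 other filters, the mean of all probes, the replicate number as a block, only the arrays compared, a trended robust prior, array weights, a threshold of 0.01 and leaving out each array. Values of some list genes are not reported here.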

Additional observations from a re-analysis of the deposited data

How the results depend on the processing

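Of the 7 tested members, the number called against naive cells was within 1.5 times of its value under every alternative. In the immunised group against cultured cells, where 1 was called, 0 were called with median scaling, with no filter on dim probes, with the replicate block, with only the arrays compared and at an adjusted p under 0.01, against 2 with normexp and quantile normalization and 3 with array weights. In the immunised group against transferred cells, where 1 was called, 0 were called with T cell core scaling and at 0.01, and 2 with array weights. In transferred against cultured cells, where 0 were called, array weights gave 2. Leaving out 1 array gave 5 to 5 called for the immunised group against naive cells, 4 to 6 for transferred and 4 to 5 for cultured cells, 0 to 3 for immunised against cultured, 0 to 1 for immunised against transferred and 0 to 1 for transferred against cultured cells. The Il21 difference moved by more than the SD pooled over both groups with T cell core scaling, to 8.53 for transferred minus naive, 0.58 for transferred minus cultured and −4.69 for immunised minus transferred cells. With normexp and quantile normalization it was 2.36 for the immunised group, 6.50 for transferred and 6.48 for cultured cells, each minus naive cells. Leaving out 1 array gave 2.69 to 3.70, 6.96 to 7.98 and 6.93 to 7.95 for the same differences, −4.49 to −4.12 for immunised minus transferred, −4.51 to −3.88 for immunised minus cultured and −0.23 to 0.39 for transferred minus cultured cells.

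Signs turned for differences that had not passed, and for 2 genes that had. In immunised minus cultured cells, Bcl6 turned to −0.02 with median scaling and −0.10 with array weights, and Ascl2 to 0.48 with array weights. In cultured minus naive cells, Sh2d1a turned to −0.079 with quantile normalization, −0.12 with normexp and −0.078 with the deposited table, and Ascl2 to −0.29 with array weights. In transferred minus cultured cells, Maf turned to 0.025 with quantile normalization, 0.025 with the deposited table and 0.51 with T cell core scaling, Ascl2 to −0.038 with normexp, and T cell core scaling gave 0.32 for Bcl6, 0.26 for Sh2d1a and 0.18 for Prdm1. T cell core scaling also turned Sh2d1a to 0.83 and the list genes Ly9 to 0.043 and Fyn to 0.11 in transferred minus naive cells, and Bcl6 to −0.13 in immunised minus transferred cells. Leaving out 1 array turned Ascl2 in immunised minus cultured (−1.40 to 0.88), transferred minus cultured (−0.28 to 2.0) and cultured minus naive cells (−0.44 to 1.84). It turned Bcl6 in immunised minus cultured (−0.11 to 0.30) and transferred minus cultured cells (−0.40 to 0.005), and Maf (−0.48 to 0.35) and Pdcd1 (−0.54 to 1.18) in transferred minus cultured cells. It turned Sh2d1a in transferred minus naive (−0.50 to 0.15), transferred minus cultured (−0.85 to 0.19) and cultured minus naive cells (−0.42 to 0.62). The causes were not tested.

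Over all genes, 600 were called in the immunised group against transferred cells, 1105 with T cell core scaling, 371 with no filter, 5793 with array weights and 185 at 0.01. Transferred against cultured cells gave 5267, or 3313 with only the arrays compared, 7933 with array weights and 2687 at 0.01. Immunised against cultured cells gave 5861, or 10306 with array weights and 3278 at 0.01, and cultured against naive cells 7463, or 4709 at 0.01. Leaving out 1 array gave 193 to 1294 in the immunised group against transferred cells. Samples of the same number deviated together with r of −0.198 to 0.204, not above 0.1 in every pair of any comparison. They share a slide, but were not treated as paired samples. With the replicate block, the members' counts other than that of the immunised against the cultured group did not move by over 1.5 times. The SE of Ascl2 was 1.02 log2 units, so differences of this size could not be told from 0.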
